A study of Mus musculus with 6 samples.

Results

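The 10 genes described here encode nuclear subunits of cytochrome c oxidase, complex IV of the respiratory chain. They were taken by Ensembl identifier (ID), with the symbol that the selection rule pairs with each ID, and are Cox4i1, Cox5a, Cox5b, Cox6a1, Cox6b1, Cox6c, Cox7a2, Cox7b, Cox7c and Cox8a. All 10 of 10 were found among the 54446 gene IDs listed, and all 10 were among the 15615 genes with enough reads to be tested. The rule takes IDs and no measured value, although it was drawn up with earlier results of these data known.

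The study sequenced RNA recovered with YTHDF2 (RIP-seq) from regulatory T (Treg) cells of B16F10 tumours, a mouse melanoma line grown under the skin. Every library came from cells labelled wild type, gated as live, CD45+, CD4+ and positive for a Foxp3-GFP reporter. The 3 libraries of the YTHDF2 immunoprecipitation (IP) came from lysate incubated with an anti-mouse YTHDF2 antibody, and the 3 Input libraries from lysate set aside before that step, with no antibody. The age of the animals and any pooling are not given in the labels. Whether replicates are separate animals is not stated either, so p-values cover only library-to-library spread, possibly technical. A precipitation with a control antibody was not analysed here, and a low value therefore means low in IP against Input. The gate was not checked against marker genes, since the files hold IDs without symbols.

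YTHDF2 is a cytoplasmic reader of N6-methyladenosine (m6A) in mRNA that brings bound transcripts to the deadenylation and decay machinery. Cytochrome c oxidase passes electrons from cytochrome c to oxygen and pumps protons across the inner mitochondrial membrane. Its catalytic core is made in the mitochondrion, while the subunits described here are translated from nuclear mRNAs in the cytosol, imported, and added in modules around the core subunits COX1, COX2 and COX3. Treg cells are known for their use of oxidative metabolism, which depends on this complex.

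Reads assigned to genes ranged from 10029733 to 14704617 in the Input libraries and from 6847731 to 8465453 in the IP libraries. Counted with those not assigned to a gene, reads numbered 26665143 to 36717109 in the Input and 27021435 to 34052273 in the IP. A smaller part of the reads was thus assigned to genes in each IP library than in any Input library, and why was not tested. Among the 6881 other tested genes whose Input level lay in the range of the 10 genes, 0.712% had no read in IP replicate 1, 0.959% in IP replicate 2 and 7.99% in IP replicate 3, and none lacked a read in an Input library. IP replicate 3 thus stood apart, and results that rest on it are given with and without it. Levels are given as CPM, the count per 1000000 gene-assigned reads after TMM scaling. Transcript lengths were not used here, so no gene is said to be more abundant than another, and ranges of CPM serve only to pick other genes with similar numbers of reads. The library kit marks strand, and whether the counts follow the intended strand was not tested. The 10 genes held 0.0665% of gene-assigned Input reads on average, a small share for mRNAs known to be abundant, and every value below rests on the counts being those of the mRNA strand.

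Of the 10 mRNAs, 9 lay lower in each IP library than in any Input library, by fitted factors of 5.21 to 104, and Cox7c was the exception. In edgeR's quasi-likelihood test across all genes, 6 passed as depleted in the IP (Benjamini-Hochberg adjusted p under 0.05): Cox5b, Cox6a1, Cox6b1, Cox6c, Cox7a2 and Cox7b. None passed as enriched. Over all tested genes, 6.11% were called depleted and 4.33% enriched. Over the 6564 other tested genes with a mean level in the range of the 10 genes, 10.5 to 109 CPM, the shares were 7.59% and 3.78%.

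The 10 mRNAs had a median log2 fold change (IP over Input) of -3.78, against -0.12 for all tested genes and -0.13 for the other genes at their level. A log2 fold change of -1 or lower was found for 9 of the 10, against 22.6% of the other genes at their level. Complete separation, every IP library below every Input library, was seen for 9 of 10, and for 23.7% of all tested genes and 27.6% of those at the same level. These counts and medians describe the group and carry no test. Leaving out IP replicate 3 raised the number called depleted from 6 to 9 of 10, with 8.73% of all genes called depleted in that fit, and leaving out Input replicate 3 lowered it to 4, with 3.26% of all genes.

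**Figure D1:**
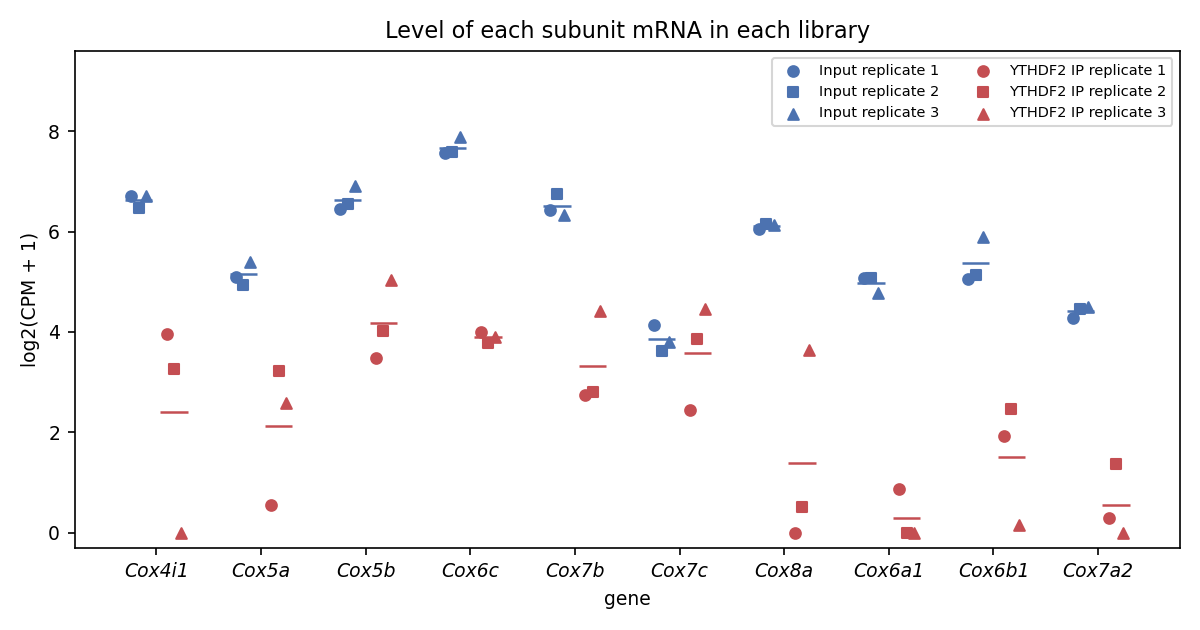
Level of each mRNA in each of the 3 Input (blue) and 3 YTHDF2 IP (red) libraries, as log2(CPM + 1), with symbols for replicates and a line at each group's mean on that scale. For 9 genes all red points lie below all blue ones, and for Cox7c the groups overlap.

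The pair that joins COX1 first during assembly, Cox4i1 and Cox5a, showed large differences that did not pass the test. Cox4i1 (ENSMUSG00000031818; chromosome 8, 120668225 to 120674209, GRCm38) encodes subunit IV, the largest nuclear subunit, in the isoform of most tissues. It had 104, 88.0 and 104 CPM in Input replicates 1 to 3 and 14.5, 8.57 and 0 CPM in IP replicates 1 to 3. The value of 0 lies in IP replicate 3, where the mean Input level would have given 831 reads and where 3 reads, the limit that a count of 0 allows, would be 0.356 CPM. Its log2 fold change of -3.68 ± 1.03 (SE) missed the threshold, at an adjusted p of 0.0529 in edgeR's test. Without IP replicate 3 it was -3.12, with an adjusted p of 0.000229, so the remaining libraries gave a smaller estimate and passed. With all libraries kept it also passed with RLE factors (0.0484), total counts (0.0497), library sizes from all reads (0.0251) and limma voom (0.0219). In 11 of the 16 alternatives that tested it, Cox4i1 was not called. Over all alternatives the adjusted p ranged from 0.000229 to 0.379.

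Cox5a (ENSMUSG00000000088; chromosome 9, 57517328 to 57532427) encodes subunit Va, which sits on the matrix side beside subunit IV. Its level was 33.2, 29.7 and 41.3 CPM in the Input and 0.468, 8.28 and 4.99 CPM in the IP. The lowest value came from IP replicate 1, with 4 reads against 57 and 42 in the other IP libraries. With a log2 fold change of -2.92 ± 0.87 (SE), Cox5a had an adjusted p of 0.0654 in edgeR's test. It passed without IP replicate 1 (adjusted p 0.0415, log2 fold change -2.43) and without IP replicate 3 (0.0459 and -3.05). With all libraries kept it passed with library sizes from all reads (0.0293), no count filter (0.00147), DESeq2 (0.00616), limma voom (0.0364) and a replicate block (0.0214). In 9 of the 16 alternatives that tested it, Cox5a was not called, and the adjusted p ranged from 0.00147 to 0.217.

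The module around COX2 holds 5 of the genes. Of these, 3 were called depleted (6.11% over all tested genes), Cox8a missed the threshold, and Cox7c did not differ detectably. Cox6c (ENSMUSG00000014313; chromosome 15, 35931976 to 35938246) encodes subunit VIc, which crosses the membrane once. Its Input libraries held 188, 190 and 234 CPM and its IP libraries 14.9, 12.8 and 14.0 CPM. The IP values lay within a narrow band, with a coefficient of variation of 7.59%, the lowest of the 10 genes, against 12.6% in the Input. The log2 fold change of -3.88 ± 0.23 (SE) had an adjusted p of 1.19e-05 in edgeR's test. The call held in all 17 alternatives, with a log2 fold change between -4.40 and -3.68 and an adjusted p of at most 0.000461.

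Cox5b (ENSMUSG00000061518; chromosome 1, 36691487 to 36693388) encodes subunit Vb, a zinc-binding subunit on the matrix side. Input libraries gave 85.9, 92.6 and 119 CPM and IP libraries 10.2, 15.2 and 31.6 CPM. The highest IP library, replicate 3, was still 2.72-fold below the lowest Input library. On the log2 scale the change was -2.38 ± 0.43 (SE; edgeR, adjusted p 0.00751), and -3 without IP replicate 3. Every alternative kept this call, with an adjusted p of at most 0.0385.

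Cox7b (ENSMUSG00000031231; chromosome X, 106015700 to 106022450) encodes the single-span subunit VIIb. It stood at 84.8, 106 and 79.9 CPM in the Input and 5.74, 5.95 and 20.5 CPM in the IP, where replicates 1 and 2 were close and replicate 3 was higher. Its change on the log2 scale was -3.06 ± 0.53 (SE; edgeR, adjusted p 0.00589), and -3.98 without IP replicate 3. This call too held in every alternative, with an adjusted p of at most 0.0325.

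Cox8a (ENSMUSG00000035885; chromosome 19, 7215158 to 7217616) encodes subunit VIII, in its widely expressed form. The Input was even, at 65.0, 70.1 and 69.2 CPM, whereas the IP gave 0, 0.436 and 11.4 CPM, or 0, 3 and 96 reads. IP replicate 3 thus held nearly all its IP reads, and its mean Input level would have given 582 reads in IP replicate 1. In edgeR's test the estimate of -4.09 ± 1.28 (log2, SE) had an adjusted p of 0.0750. With all libraries kept it passed with library sizes from all reads (0.0440) and limma voom (0.0110). In 13 of the 16 alternatives that tested it, Cox8a was not called. Without IP replicate 3 the adjusted p was 4.42e-05, within a range of 4.42e-05 to 0.361 over all alternatives. Over the libraries other than IP replicate 3 the Input exceeded the IP by a pooled ratio of 349, with a 95% interval of 119 to 1690 that covers counting error only.

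Cox7c (ENSMUSG00000017778; chromosome 13, 86044798 to 86046795) encodes the single-span subunit VIIc. Its Input libraries held 16.5, 11.3 and 13 CPM and its IP libraries 4.45, 13.5 and 20.9 CPM. IP replicate 1 lay below all Input libraries, IP replicate 3 above them, and IP replicate 2 among them. Its estimate was -0.07 ± 0.74 (log2, SE; edgeR, adjusted p 0.977), with a 95% interval of -1.73 to 1.59, and the sign changed with the scaling. That interval is wide, and the missing call does not show an unchanged level. Without IP replicate 3 the estimate was -0.64 (edgeR, adjusted p 0.577), and without IP replicate 1 it was 0.29 (0.824). Of the other genes at the same level, 52.4% had a lower log2 fold change, against 0.152% to 5.55% for each of the other 9 subunit mRNAs.

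The module around COX3 was called depleted in full, 3 of 3, against 6.11% of all tested genes. It held the 2 lowest estimates of the 10, Cox6a1 and Cox7a2, which rest on 7 and 13 IP reads. The call of Cox6b1 was lost in 3 of 16 alternatives and that of Cox7a2 in 5 of 16. Cox6a1 (ENSMUSG00000041697; chromosome 5, 115345652 to 115348958) encodes the non-muscle form of subunit VIa, at the contact between the monomers of the dimer. It had 32.7, 32.7 and 26.3 CPM in the Input and 0.820, 0 and 0 CPM in the IP. Its 7 IP reads all lay in replicate 1, against 1067 reads over the Input libraries. The fitted value was -6.69 ± 1.29 (log2, SE; edgeR, adjusted p 0.0104). Pooled over libraries, the Input exceeded the IP by a ratio of 104, with a 95% interval for counting error of 50.4 to 260. Without IP replicate 1 no IP read is left, and the IP level lay at least 77.2-fold lower, taken against a floor of 3 reads per library. The call held in all 16 alternatives that tested it.

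Cox6b1 (ENSMUSG00000036751; chromosome 7, 30616971 to 30626114) encodes subunit VIb, which faces the intermembrane space and bridges the dimer. It stood at 32.4, 34.1 and 58.7 CPM in the Input and 2.81, 4.50 and 0.119 CPM in the IP. The groups were far apart, with the lowest Input library 7.19-fold above the highest IP library, but IP replicate 3 held 1 read only. A log2 fold change of -4.08 ± 0.97 (SE) gave an adjusted p of 0.0271 in edgeR's test. The call was lost without IP replicate 1 (adjusted p 0.103), IP replicate 2 (0.0510, with a log2 fold change of -4.84) or Input replicate 3 (0.118), the highest value over the alternatives, whose lowest was 4.09e-07. The estimates without IP replicate 1 and Input replicate 3 were -4.23 and -3.85, close to the full one. Without IP replicate 3 the call held, at -3.55 with an adjusted p of 0.00131.

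Cox7a2 (ENSMUSG00000032330; chromosome 9, 79755241 to 79771422) encodes the non-muscle form of subunit VIIa. Its Input libraries held 18.3, 21.1 and 21.6 CPM and its IP libraries 0.234, 1.60 and 0 CPM, or 2, 11 and 0 reads. All IP values were at least 11.5-fold below the lowest Input value. At -5.06 ± 1.34 (log2, SE), its adjusted p was 0.0418 in edgeR's test, the value closest to the threshold among the 6 calls. The call was lost without IP replicate 1 (0.119) and without Input replicate 1, 2 or 3 (0.112, 0.138 and 0.155), within a range of 1.48e-05 to 0.155. The estimates in these fits were -4.72, -5.23, -5.13 and -5.12, close to the full one. The call held without IP replicate 3, at -4.53 with an adjusted p of 0.00609. Without IP replicate 2 it also held, on 2 IP reads, with a pooled ratio of 171 and a 95% counting interval of 47.1 to 1410.

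**Figure D2:**
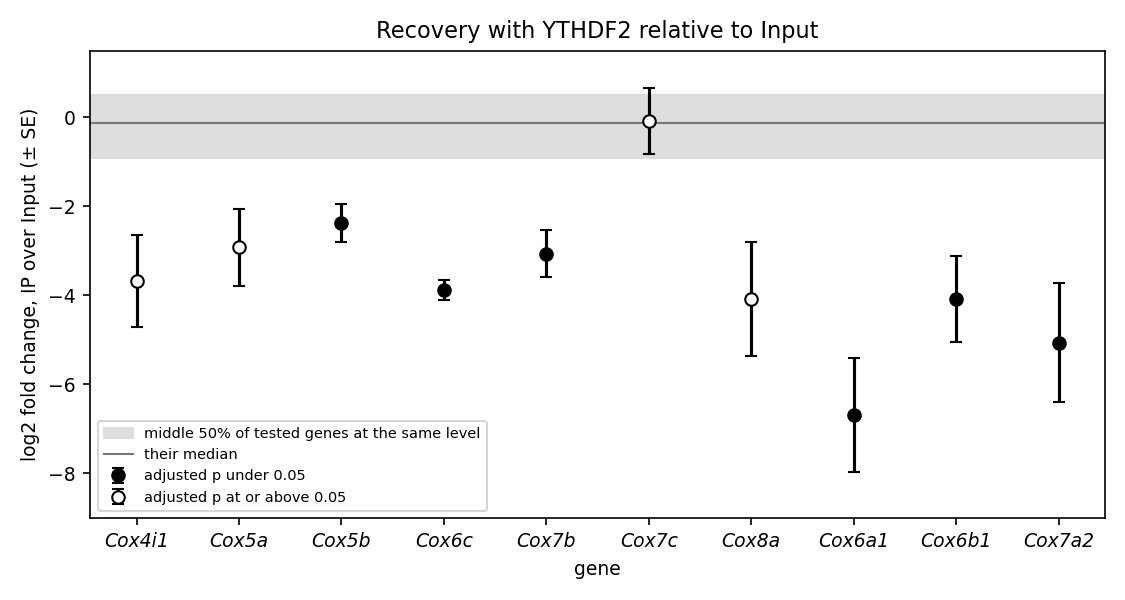
Log2 fold change of IP over Input with its standard error for each mRNA, ordered by module, with filled points at an adjusted p under 0.05. The grey band holds the middle 50% of other tested genes at the same level, -0.90 to 0.51, and only Cox7c lies in it.

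The IP libraries differed among themselves in which subunit mRNAs they held. IP replicate 3 was the highest IP library for 4 of the 5 genes of the COX2 module, Cox5b, Cox7b, Cox7c and Cox8a, but not for Cox6c. It was the lowest for Cox4i1, Cox6b1 and Cox7a2. IP replicate 1 was the highest for Cox4i1, Cox6a1 and Cox6c, and IP replicate 2 for Cox5a, Cox6b1 and Cox7a2. The 10 genes gave 462, 488 and 872 reads in IP replicates 1 to 3 and 9173, 6403 and 8849 reads in Input replicates 1 to 3. Their coefficient of variation had a median of 87.4% in the IP (range 7.59% to 173%) and 14.0% in the Input (range 3.96% to 35.4%). Other tested genes in the same range of IP level, 0.273 to 19.0 CPM, had a median of 96.5%, and those in the same range of Input level 15.8%. The spread of the subunit mRNAs in each group was thus close to that of other genes of like level there. No read was found for 1 subunit mRNA in IP replicate 1, for 1 in IP replicate 2 and for 3 in IP replicate 3.

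**Figure D3:**
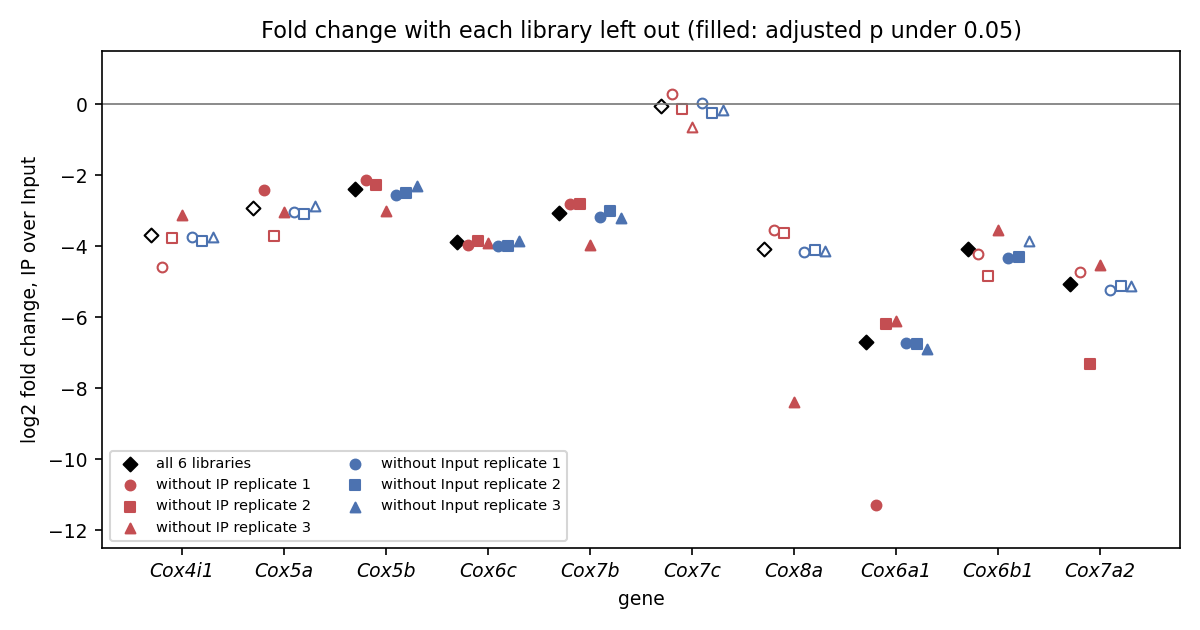
Log2 fold change of IP over Input with all 6 libraries (black diamonds) and with each IP (red) or Input (blue) library left out, filled where the adjusted p was under 0.05. The lowest points of Cox6a1, Cox7a2 and Cox8a rest on 0 to 3 IP reads and depend on the fit's prior count. Cox6c moved least, and Cox7c is the gene with points on both sides of 0.

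The share that the 10 genes took of all gene-assigned reads needs no TMM factor. It was 0.0624%, 0.0638% and 0.0734% in the Input libraries and 0.00546%, 0.00713% and 0.0112% in the IP libraries, with no overlap. The Input mean was 0.0665% ± 0.00598 (SD, n = 3) and the IP mean 0.00794% ± 0.00297 (SD, n = 3). Without Cox7c it was 0.0652% ± 0.00605 (SD, n = 3) and 0.00658% ± 0.0021 (SD, n = 3).

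Within these reads, 5 of the 10 genes had a mean share that differed between the groups by more than the IP spread (1 SD). Cox7c took 2.50% (95% Clopper-Pearson interval 2.19% to 2.84%), 1.67% (1.37% to 2.02%) and 1.70% (1.44% to 1.99%) of the reads of the 10 genes in Input replicates 1 to 3. In IP replicates 1 to 3 it took 8.23% (5.89% to 11.1%), 19.1% (15.7% to 22.8%) and 20.2% (17.6% to 23.0%). All IP values lay above all Input values, also in IP replicate 1, where Cox7c itself was low. Cox5b held 14.1% ± 1.31 (SD, n = 3) of Input reads of this kind and 23.6% ± 6.11 (SD, n = 3) of IP reads. The share of Cox6a1 was 4.41% ± 0.841 and 0.505% ± 0.875 (SD, n = 3 each), that of Cox7a2 2.90% ± 0.193 and 0.896% ± 1.2, and that of Cox6c 29.0% ± 1.28 and 19.7% ± 7.12. For the other 5, Cox4i1, Cox5a, Cox6b1, Cox7b and Cox8a, the means differed by less than the SD in the IP, as for Cox8a, with an Input mean of 9.74% and an IP mean of 3.87% ± 6.19 (SD, n = 3). Cox7c was singled out after its values were seen, so its difference from the other subunit mRNAs was not tested. A share can also rise because the others fell. Of all gene-assigned reads, Cox7c held 0.00129% ± 0.000248 in the Input and 0.00136% ± 0.000909 in the IP (SD, n = 3 each). The other subunit mRNAs together went from a mean of 0.0652% to 0.00658%.

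**Figure D4:**
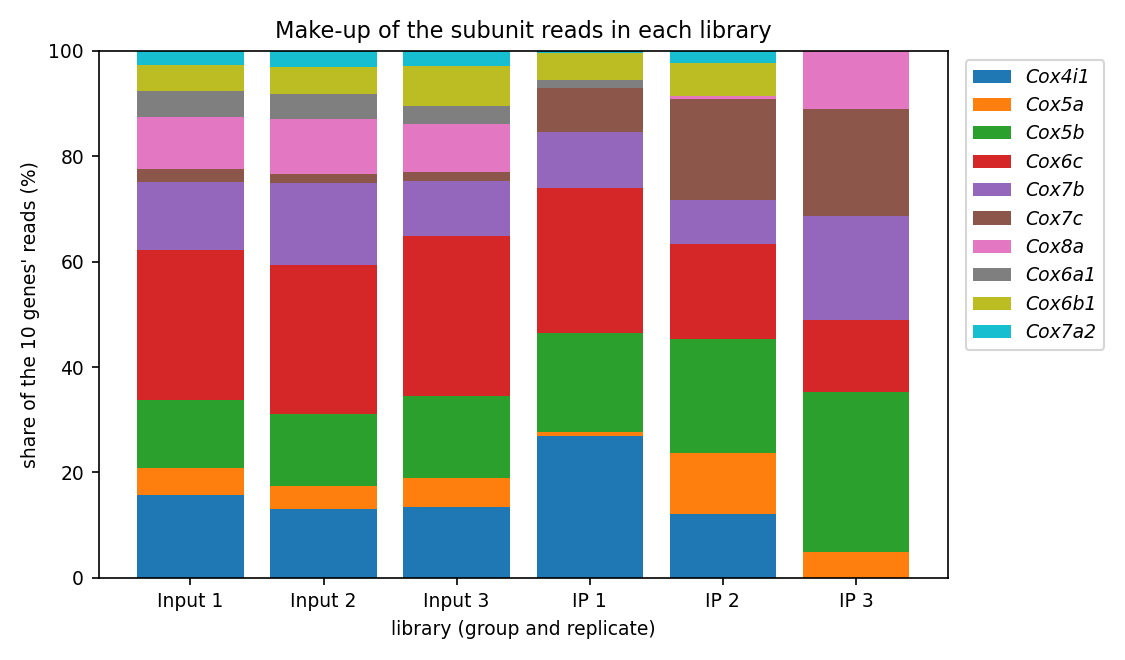
Share of the reads of the 10 genes held by each gene in each library, in percent, as stacked bars that sum to 100. The Input libraries look alike, Cox7c (brown) is wider in all IP libraries, and IP replicate 3 lacks Cox4i1, Cox6a1 and Cox7a2.

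Promoter sequence was available for 8 of the 10 genes, from RefSeq on GRCm38.p6; Cox4i1 and Cox6c had no entry. For Cox5a and Cox7a2 the start site of the entry lies inside the annotated gene, at 57521232 and 79759853, so the stretch searched is not that before the outermost start. Nuclear subunit genes of the respiratory chain are known targets of NRF-1, of ETS-family factors such as NRF-2 and of YY1, so these motifs were searched on both strands in the 250 bases before the start site. NRF-1 (GCGCANGCG) matched in 1 of the 8, Cox6a1, and in 5.16% of all 32851 promoters. ETS (CCGGAAG) matched in 2, Cox6a1 and Cox6b1, and in 6.91% of all promoters, and YY1 (AANATGGC) matched in 0 and in 3.91%. The 170 bases before the start are shown for the 2 genes with a match, and for Cox7c, which had none. Both genes with a match were called depleted, and Cox5a, Cox7c and Cox8a, which were not called, had none. Matches still did not separate the genes by call, since Cox5b and Cox7b had none and were called depleted. Cox7a2, also called, had none in the stretch searched. An association with the call was not tested. Capitals mark the matches. A match describes letters only, and these libraries measured RNA and not the promoters.
Cox6a1, chr5:115348959-115349128, minus strand: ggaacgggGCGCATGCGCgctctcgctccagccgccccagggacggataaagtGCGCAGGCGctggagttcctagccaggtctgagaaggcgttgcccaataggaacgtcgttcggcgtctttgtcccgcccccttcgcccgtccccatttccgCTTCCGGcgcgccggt
Cox6b1, chr7:30626115-30626284, minus strand: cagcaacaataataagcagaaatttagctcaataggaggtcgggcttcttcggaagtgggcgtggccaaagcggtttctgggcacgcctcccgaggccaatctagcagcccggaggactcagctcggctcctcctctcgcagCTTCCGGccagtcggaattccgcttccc
Cox7c, chr13:86046796-86046965, minus strand: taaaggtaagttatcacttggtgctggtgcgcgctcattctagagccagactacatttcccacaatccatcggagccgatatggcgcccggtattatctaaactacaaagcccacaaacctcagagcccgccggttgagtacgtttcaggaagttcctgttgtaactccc
In Cox6a1 the pair of overlapping NRF-1 matches and the ETS match, 9 bases before the start, lie at opposite ends of the stretch.

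By the mean log2(CPM + 1) of the 10 genes over the 6 libraries, the gene ID with the most similar pattern was ENSMUSG00000034994, with a Pearson r of 0.9997. Its Input level was 2430 ± 37.2 CPM (SD, n = 3) and its IP level 589 ± 58.3 CPM (SD, n = 3). The next was ENSMUSG00000019370, with an r of 0.9995, an Input level of 262 ± 15.8 CPM (SD, n = 3) and an IP level of 39.0 ± 5.69 CPM (SD, n = 3). Among the 8659 genes compared, 111 had an r of at least 0.99. Over 6 libraries in 2 groups, such an r mostly reflects the difference between IP and Input, and the files give these IDs no symbol.

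The level of the subunit mRNAs rests on how reads were counted. The files hold uniquely aligned reads, and genes of this family are known to have processed pseudogenes, so reads shared with such copies would be missing; their number was not tested.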

How the data were processed

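RNA of sorted Treg cells was sequenced in 3 YTHDF2 IP and 3 Input libraries. The deposited values are raw read counts per Ensembl gene ID, with a file for each library. The tools, per the submitters' processing notes, were Trimmomatic 0.39, HISAT2 2.1.0, HTSeq and DESeq2 on mm10 (GRCm38); strand setting and annotation release: not given in the sources used here. Left out were 5 HTSeq summary lines and 92 spike-in lines.

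Counts of all genes entered edgeR's quasi-likelihood F-test (edgeR 4.0.16, R 4.3.3, filterByExpr, TMM, robust, group only, two-sided), with Benjamini-Hochberg adjustment over all 15615 genes and calls at 0.05. The procedure was also run on simulated counts, drawn with a typical spread for each level and not with each gene's own. That run cannot show how the test handles IP libraries as uneven as these. Standard errors come from the F statistics. Depth was 6847731 to 14704617 gene-assigned reads per library; without molecular identifiers, intervals and the floor of 3 reads cover counting error only. The members and lists were chosen with earlier results of these data known. Of the rule for named genes, all 10 members and the 2 most similar IDs (mean of at least 10 CPM) are given. The files pair no IDs with symbols, so lists of other respiratory genes and of cell type markers were not applied. Alternatives were other scaling, filters and tests (DESeq2 1.42.0, limma 3.58.1), a replicate block and each library left out.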

Additional observations from a re-analysis of the deposited data

How the results depend on the processing

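None of the 10 mRNAs was called enriched in edgeR or in any of the 17 alternatives, and Cox7c had adjusted p-values from 0.577 to 0.999. At an unadjusted p under 0.05 the count was also 0 in edgeR, DESeq2 and each other setting. The log2 fold change of the other 9 stayed below 0 wherever it was estimated. The number called depleted was 6, with 6.11% of all tested genes, and 4 to 9 with 1 library left out, with 3.26% to 8.73%. With library sizes from all reads and with limma voom it was 9, with 11.7% and 11% of all tested genes. It was 7 with RLE factors (5.89%), total counts (5.6%), no count filter (3.29%) and DESeq2 (5.24%). The DESeq2 share is taken over all 40072 genes with a fold change, including any without an adjusted p, so it may understate the share of tested genes. Against a 1.5-fold change it was 5 (3.78%). Upper quartile factors (5.13%) and a mean count of at least 50 (9.01%) left it at 6. It was 3 when 1 CPM was required in all libraries (12.5%). By construction that filter tested only 4 of the 10 and removes genes that fell. The median log2 fold change of the 10 was -3.78, and -3.59 with upper quartile factors, -4.32 with library sizes from all reads, -2.69 with the 1 CPM filter, -4.40 with limma voom and -3.93 to -3.73 with 1 library left out. Relative to all genes, whose median moved by 0.20, -0.53 and -0.45 with upper quartile factors, all reads and limma voom, it was -3.66, -3.67 and -3.83. Cox7c changed sign, to 0.15 with upper quartile factors, 0.01 with RLE factors, 0.08 with total counts, 0.00 with a mean count of at least 50 and 0.02 with DESeq2, and lay between -0.64 and 0.29 with 1 library left out. Cox7a2 lost its call against a 1.5-fold change (adjusted p 0.0719). Over all genes, 676 were enriched and 954 depleted; enriched genes numbered 155 with all reads, 205 against a 1.5-fold change, 1030 with the 1 CPM filter, 1081 with upper quartile factors and 1394 with DESeq2, depleted genes 591 against 1.5-fold, 1715 with limma voom, 1924 with all reads and 2101 with DESeq2. With 1 library left out, enriched genes numbered 188 (without Input replicate 3) to 999 and depleted genes 563 (again Input replicate 3) to 1661, both highest without IP replicate 3. What causes these differences was not tested.

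A replicate block called 7 of the 10 depleted, adding Cox5a (adjusted p 0.0214), with a median log2 fold change of -4.11, and 7.01% of all tested genes depleted against 6.11%. The labels do not say that equal numbers share a lysate, so the numbers were not taken as pairs. Same-numbered libraries deviated together at r = 0.130, 0.040 and 0.025. Given the spread between IP libraries, these values cannot decide whether a lysate was shared.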
